A study of Mus musculus with 23 samples.

Results

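Steroid hormones act on the liver through receptors, and the liver in turn makes, activates and clears them. The genes described here are 8 hepatic receptors for steroids and prolactin and steroid-converting enzymes other than the Hsd3b family, chosen by name: Esr1, Nr3c1, Prlr, Hsd11b1, Srd5a1, Hsd17b2, Akr1c6 and Cyp17a1. Of these 8, 6 have a probe set to which the platform annotation gives exactly 1 symbol, among 19147 such genes in all, and each is read on its brightest probe set by mean log2 intensity; Prlr and Srd5a1 were not analysed here. The study measured liver RNA on 1 array per sample in 4 groups: 6 female KO, 6 female WT, 6 male KO and 5 male WT. KO mice lack P2ry13, also named GPR86, a receptor for ADP, and WT mice carry it; the sources used here do not give the knockout allele, the strain, the age or any treatment. The stated aim was to find transcripts that change in liver on ablation of that gene.

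As background, the nuclear receptors for estrogen and glucocorticoid are transcription factors that bind DNA once the hormone has entered the cell, so a liver's response depends on receptor level as well as on the hormone that reaches it. Converting enzymes set that hormone level locally: some make an active steroid from an inactive one, others do the reverse. In rodents, liver expression differs widely between the sexes, and the pattern of growth hormone release is a main driver of that difference.

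P2ry13 lay between 5.06 and 5.34 (log2 intensity) in the 12 KO arrays and between 5.80 and 6.42 in the 11 WT arrays, without overlap. Xist, which silences an X chromosome, lay between 8.42 and 9.78 in the arrays labelled female and between 4.14 and 5.22 in those labelled male, and the Y-linked Eif2s3y lay between 2.72 and 3.45 in females and between 8.23 and 8.91 in males. Array medians ranged from 19.5 to 21.1 linear intensity units. The hepatocyte markers Alb, Apoh, Fgb and Ttr had group means of up to 14.77, 13.79, 13.93 and 11.94 log2, which are 4 of 8 such markers listed. None of the 6 genes lies on chromosome 3, which carries P2ry13, by RefSeq's gene table for GRCm38.p6. The number of arrays limits the precision of every value. Since only the design text speaks of separate mice, p-values set differences against the spread between these samples, whether or not each is a separate mouse.

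Of these genes, 2 differed between the sexes and none passed between the genotypes. Cyp17a1 was 20.1-fold higher in female than in male livers among KO mice and 11.9-fold higher among WT mice, and Esr1 was 3.06-fold and 3.35-fold higher. The other 4 genes, Nr3c1, Hsd11b1, Hsd17b2 and Akr1c6, differed between the sexes by at most 0.29 on the log2 scale and did not pass. Here passing means an adjusted p under 0.05 from limma, a linear model with a spread shared across probe sets, with Benjamini-Hochberg adjustment over all 38385 probe sets. Between females and males, 2 of the 6 genes passed in KO and both were higher in females, against 4.85% of all probe sets that passed and 3.21% that were higher. In WT the same 2 passed, both higher, against 4.25% and 2.54%. The KO and WT comparisons share no array, but their p-values rest on the same estimate of the spread, taken from all 23 arrays. The 6 genes were chosen with earlier results of these data known, so these shares are no test of them as a group.

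**Figure D1:**
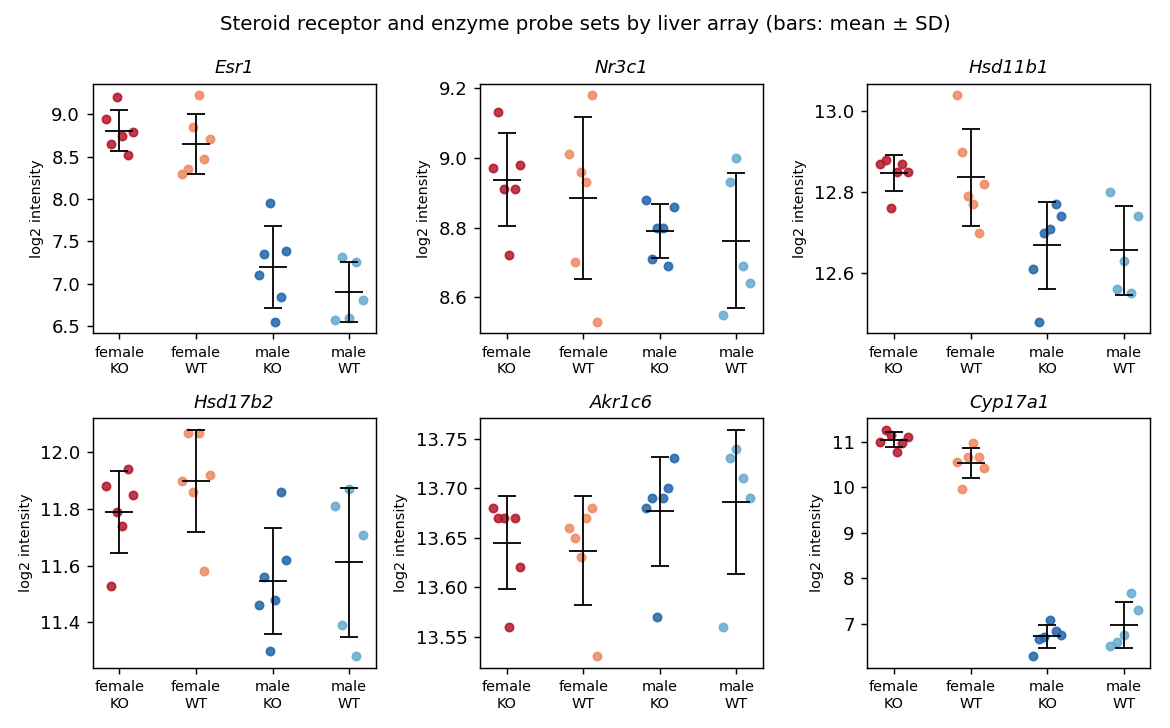
Log2 intensity (vertical axis, a separate scale in each panel) of the brightest probe set of 6 genes in each liver array, by group: female KO, female WT, male KO and male WT (6, 6, 6 and 5 arrays), with the mean and SD as bars. Cyp17a1 and Esr1 show female arrays above all male arrays, while Akr1c6 stays within 13.53 to 13.74 in all 23 arrays.

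Esr1 encodes estrogen receptor alpha, the main estrogen receptor of hepatocytes. Its probe set read 8.52 at the lowest, 8.77 at the median and 9.21 at the highest in female KO livers, and 8.29, 8.59 and 9.23 in female WT livers. It read 6.55 at the lowest, 7.22 at the median and 7.95 at the highest in male KO livers, and 6.57, 7.31, 6.59, 7.25 and 6.80 in male WT livers. Every female array lay above every male array of its genotype, a separation seen for 3.38% of all probe sets in KO and 3.86% in WT. The female group means were 8.81 ± 0.24 in KO and 8.65 ± 0.35 in WT, and the male means were 7.20 ± 0.48 in KO and 6.90 ± 0.355 in WT (log2, SD, n = 6, 6, 6 and 5). Esr1 was higher in females than in males by 1.61 in KO (SE 0.19, limma, adjusted p = 7.81e-07) and by 1.75 in WT (SE 0.20, limma, adjusted p = 6.85e-07).

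A second, much dimmer Esr1 probe set pointed the same way. It had group means of 4.15 ± 0.20 in female KO and 3.48 ± 0.23 in male KO (log2, SD, n = 6 each), and of 3.92 ± 0.34 in female WT (n = 6) and 3.45 ± 0.10 in male WT (n = 5). It was higher in females by 0.67 in KO (SE 0.13, limma, adjusted p = 0.000826) and by 0.47 in WT (SE 0.13, limma, adjusted p = 0.0357). Averaging both probe sets lowers the Esr1 difference to 1.14 in KO and 1.11 in WT, and both still pass.

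Esr1 has 2 entries in the RefSeq promoter table of GRCm38.p6, each running from 250 bases before an annotated transcription start to 50 after it, and 5 of the 8 genes have an entry there. They are shown because Esr1 is the receptor whose level differed with sex; a probe set does not say which start was used. Capitals mark matches, on either strand, to the letters TTCNNNGAA or GGTCA. TTCNNNGAA is the core that STAT5 binds below the growth hormone and prolactin receptors, and GGTCA is a half-site, not the whole, of an estrogen response element.
Esr1 start 1, chr10:4611739-4612038, plus strand: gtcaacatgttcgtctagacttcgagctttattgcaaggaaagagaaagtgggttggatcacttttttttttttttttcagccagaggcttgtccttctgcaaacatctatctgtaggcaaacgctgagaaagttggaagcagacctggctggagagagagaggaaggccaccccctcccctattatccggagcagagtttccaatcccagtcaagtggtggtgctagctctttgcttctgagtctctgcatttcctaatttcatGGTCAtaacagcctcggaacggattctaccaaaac
Esr1 start 2, chr10:4709908-4710207, plus strand: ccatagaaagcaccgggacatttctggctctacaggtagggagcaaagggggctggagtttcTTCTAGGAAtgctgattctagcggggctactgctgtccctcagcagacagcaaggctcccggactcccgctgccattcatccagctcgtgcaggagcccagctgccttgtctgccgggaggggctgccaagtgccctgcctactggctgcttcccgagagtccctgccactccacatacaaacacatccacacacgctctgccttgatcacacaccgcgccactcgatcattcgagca
The first window holds 1 match to GGTCA, which begins at base 16 after the start, and none to TTCNNNGAA. The second holds 1 match to TTCNNNGAA, which begins at base -188, and none to GGTCA. Over all 32851 windows of the table, 8.3% hold TTCNNNGAA and 40.5% hold GGTCA, so matches to GGTCA are frequent and those to TTCNNNGAA less so. Whether any factor binds at these matches was not tested. The 6 letters TGTTCT, part of the element that glucocorticoid and androgen receptors bind, were also searched on both strands; they are in neither window and are in 19% of all.

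Nr3c1 encodes the glucocorticoid receptor, which nearly all cells carry. In female livers it read 8.72 to 9.13 in KO, with a median of 8.94, and 8.53 to 9.18 in WT, with a median of 8.94. In male livers it read 8.69 to 8.88 in KO, with a median of 8.80, and 8.55, 8.93, 9.0, 8.69 and 8.64 in WT. The groups overlapped in every comparison, although 5 of 6 female KO arrays lay above all male KO arrays. The female minus male difference was 0.15 in KO (95% interval -0.05 to 0.34) and 0.12 in WT (-0.08 to 0.33), and neither passed (limma, adjusted p = 0.486 and 0.588). A second Nr3c1 probe set read 0.14 higher in females in KO and 0.26 higher in WT (limma, adjusted p = 0.404 and 0.0884). Sex differences of the size seen for Esr1 lie outside both intervals.

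Cyp17a1 encodes the cytochrome P450 that turns progestins into androgen precursors, an enzyme best known from gonads and, in many species, the adrenal. It read 10.79 at the lowest, 11.04 at the median and 11.27 at the highest in female KO livers, and 9.96, 10.61 and 10.97 in female WT livers. It read 6.28 at the lowest, 6.73 at the median and 7.08 at the highest in male KO livers, and 6.50, 6.59, 6.75, 7.68 and 7.31 in male WT livers. The lowest female array, at 9.96, was above the highest male array, at 7.68. In linear units the group means correspond to 2118.6 in female KO, 1487.9 in female WT, 105.6 in male KO and 125.0 in male WT.

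The sex difference of Cyp17a1 was 4.33 in KO (SE 0.17, limma, adjusted p = 4.3e-17) and 3.57 in WT (SE 0.18, limma, adjusted p = 1.69e-14), higher in all 6 female arrays of each genotype. Leaving out any single array kept it between 4.24 and 4.40 in KO and between 3.46 and 3.75 in WT. Markers of adrenal and gonadal steroid-making cells did not move with it: of 7 measured, 0 passed in either comparison by limma, and their summed linear intensity was 95.6 to 105.7 in female KO and 94.4 to 109.6 in male KO, and 95.2 to 109.9 in female WT and 96.5 to 107 in male WT. Among them Star, Cyp11a1, Cyp11b1 and Cyp21a1, which serve steroid synthesis before and after Cyp17a1, had group means of at most 3.27, 3.44, 2.76 and 3.99 log2. All 7 were dim, the highest group mean being 5.14 log2 for Inha, so a fall in them could hardly have been read. Whether other tissue added to the Cyp17a1 signal was not tested.

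Ordered by group mean, Cyp17a1 was highest in female KO (11.05 ± 0.17), then in female WT (10.54 ± 0.34), male WT (6.97 ± 0.51) and male KO (6.72 ± 0.26; log2, SD, n = 6, 6, 5 and 6). The step between female WT and male WT passed, and neither step between genotypes did. Female KO read 0.51 higher than female WT (SE 0.17, 95% interval 0.16 to 0.86, 1.42-fold), with 5 of 6 KO arrays above all WT arrays; its unadjusted p was 0.00535 and its adjusted p 0.735 (limma). Male KO minus male WT was -0.24 (SE 0.18, 95% interval -0.61 to 0.12, limma, adjusted p = 0.875). The KO effect in females minus that in males was 0.75 (SE 0.24, 95% interval 0.25 to 1.25), at an unadjusted p of 0.00458 and an adjusted p of 0.96 (limma), so this difference of the KO effects did not pass either. With single arrays left out, the difference in males ran from -0.36 to -0.06, the value of -0.06 being that without male WT replicate 5.

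Hsd11b1 encodes the reductase that regenerates active glucocorticoid from its inactive keto form in liver. It read 12.76 to 12.88 in female KO, with a median of 12.86, and 12.70 to 13.04 in female WT, with a median of 12.81. It read 12.48 to 12.77 in male KO, with a median of 12.70, and 12.80, 12.56, 12.63, 12.55 and 12.74 in male WT. In KO, 5 of 6 female arrays lay above all male arrays, and in WT 3 of 6 did. The female minus male difference was 0.18 in KO (95% interval 0.04 to 0.32) and 0.18 in WT (0.04 to 0.32), with unadjusted p of 0.0123 and 0.0157, but neither passed over all probe sets (limma, adjusted p = 0.143 and 0.165).

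Hsd17b2 encodes the oxidase that inactivates estradiol and testosterone. It read 11.53 to 11.94 in female KO, with a median of 11.82, and 11.58 to 12.07 in female WT, with a median of 11.91. It read 11.30 to 11.86 in male KO, with a median of 11.52, and 11.81, 11.39, 11.87, 11.28 and 11.71 in male WT. The sexes overlapped in both genotypes. The female minus male difference was 0.24 in KO (95% interval 0.02 to 0.46) and 0.29 in WT (0.06 to 0.51), and neither passed (limma, adjusted p = 0.236 and 0.162).

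Akr1c6 encodes an aldo-keto reductase that reduces steroid ketones, among them the precursor of testosterone. It was among the brightest probe sets of the array, at the 99.9th percentile by mean log2. It read 13.56 to 13.68 in female KO and 13.53 to 13.68 in female WT, and 13.57 to 13.73 in male KO and 13.56 to 13.74 in male WT. Its female minus male difference was -0.03 in KO (95% interval -0.14 to 0.08) and -0.05 in WT (-0.17 to 0.07; limma, adjusted p = 0.854 and 0.734). Close paralogs of the Akr1c family can share signal on a probe set, so these values are uncertain as a reading of Akr1c6 alone.

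**Figure D2:**
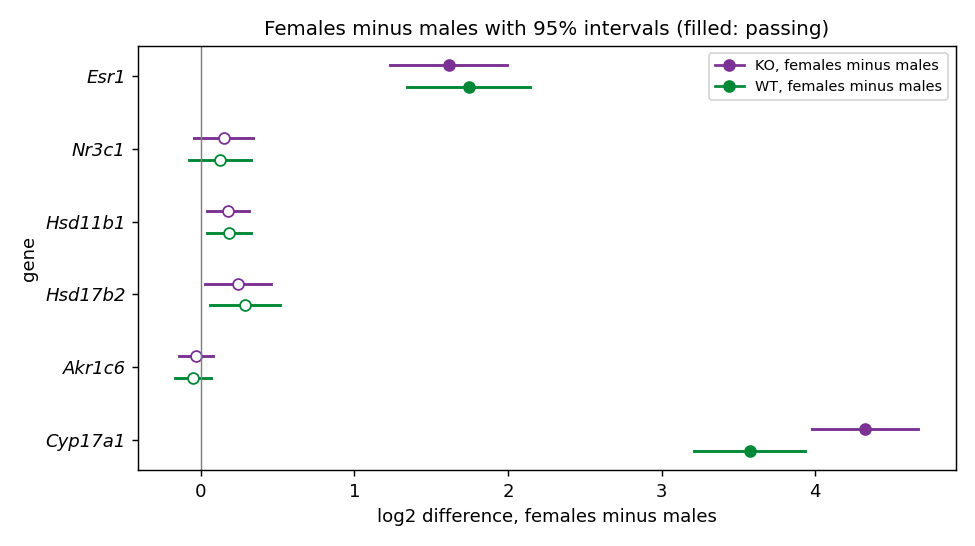
Log2 difference, females minus males (horizontal axis), with 95% intervals for 6 genes (rows), in KO (upper line of each pair) and in WT (lower line); filled points passed limma after adjustment. Cyp17a1 (4.33 and 3.57) and Esr1 (1.61 and 1.75) lie apart from the other 4 genes, which lie between -0.05 and 0.29.

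Between the sexes, 4 of the 6 genes had an unadjusted p under 0.05 in KO and 4 in WT (limma), against 16.2% and 16.5% of all probe sets. These are Esr1, Hsd11b1, Hsd17b2 and Cyp17a1 in both, of which Hsd11b1 and Hsd17b2 did not pass after adjustment. The median female minus male difference of the 6 genes was 0.21 in KO and 0.23 in WT, beside medians of -0.0049 and -0.0094 over all 19147 genes named. As the 6 genes were chosen with earlier results of these data known, these counts and medians are no test of them as a group. In bulk liver, a higher signal can stand for more cells of a type or for more RNA per cell, and these cannot be told apart. Markers of Kupffer cells, the macrophages of the liver, moved with sex too. Of 8 measured, 7 were higher in females in KO, all but Clec4f, and 6 in WT, all but Clec4f and Marco (limma), and by the plain analysis of variance after adjustment 2 and 2 passed; the median differences were 0.48 and 0.47. Their summed linear intensity was 5957.1 to 7872 in female KO and 4029.1 to 5642.7 in male KO, and 5728.6 to 7107.3 in female WT and 3976.6 to 5500.7 in male WT. Their part in the sex differences of Esr1 and Cyp17a1 was not tested. Of 4 measured hepatocyte markers, 0 passed in KO and 0 in WT by limma, but by the plain analysis of variance Alb (0.08) and Apoh (0.10) were higher in females in KO and Apoh (0.14) in WT (adjusted p = 0.0216, 0.0178 and 0.00752).

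Between KO and WT, 0 of the 6 genes passed in females, against 0.0547% of all probe sets, and 0 in males, against 0.0313% (limma). At an unadjusted p under 0.05 there was 1 in females, Cyp17a1, against 5.87% of all probe sets, and 0 in males, against 6.14%. A plain one-way analysis of variance of the compared groups, the test the design text names, gave the same 1 and 0 before adjustment and 0 and 0 after. No gene of the 6 had groups that did not overlap, a separation seen for 0.229% of all probe sets in females and 0.555% in males. For the difference of the KO effects between the sexes, 0 of the 6 passed, against 0.0104% of all probe sets, and 1, Cyp17a1, had an unadjusted p under 0.05, against 5.14%.

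The intervals of the KO differences were as follows. Esr1 read 0.16 higher in female KO than in female WT (95% interval -0.22 to 0.54) and 0.29 higher in male KO than in male WT (-0.11 to 0.69; limma, adjusted p = 0.942 and 0.86). Hsd11b1 differed by 0.01 in females (-0.13 to 0.15) and by 0.01 in males (-0.13 to 0.15). Akr1c6 differed by 0.01 in females (-0.10 to 0.12) and by -0.01 in males (-0.13 to 0.11). For the probe set signals of Hsd11b1 and Akr1c6, changes beyond 0.155 on the log2 scale therefore lie outside the intervals in both sexes. Since paralogs can share the Akr1c6 signal, its interval need not bound the change of Akr1c6 alone. Nr3c1 differed by 0.05 in females (-0.14 to 0.24) and 0.03 in males (-0.17 to 0.23), and Hsd17b2 by -0.11 in females (-0.33 to 0.10) and -0.07 in males (-0.29 to 0.16). None of these values passed, and an adjusted p that misses the threshold does not show that the groups are alike.

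**Figure D3:**
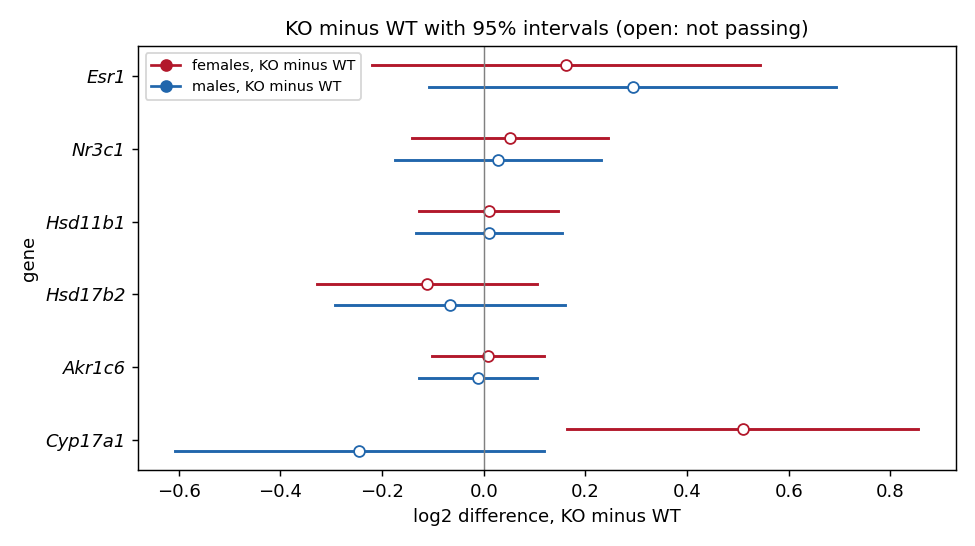
Log2 difference, KO minus WT (horizontal axis), with 95% intervals for 6 genes (rows), in females (upper line of each pair) and in males (lower line); open points did not pass limma after adjustment. Cyp17a1 reads 0.51 in females and -0.24 in males, and the other 10 points lie between -0.11 and 0.29.

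Of genes known for a sex bias in mouse liver, a few passed between female KO and female WT, where Cyp17a1 read higher. Of 14 such genes higher in females as a rule, Sult2a1, Sult2a2 and Hao2 rose in female KO, 11 did not pass, and all 14 had positive differences, with a median of 0.64 beside 0.0014 over all genes (limma); 0.0547% of all probe sets passed here. The differences were uneven, as Cyp2b9 read 0.06 and Cux2 0.08 higher in female KO. Their summed linear intensity was 17654.9 to 25894.7 in female KO and 10873.5 to 18897.6 in female WT. Of 10 that are higher in males as a rule, 2 passed, Hsd3b5 and Cyp2d9, both lower in female KO; 1 of the 10, Elovl3, was positive, at 0.05, and the median was -0.56, with Cyp7b1 at -0.13. In a plain analysis of variance all 5 of these calls were lost, at adjusted p of 0.0504 to 0.392. Cyp17a1, at 0.51, lay below the median of the first of these lists, and whether its value is tied to theirs was not tested. In male KO, 0 of 14 and 0 of 10 passed (limma), with 0 and 0 at an unadjusted p under 0.05, and medians of -0.02 and -0.12. The unadjusted limma counts in females were 9 of 14 and 6 of 10. At that unadjusted p, 5.87% of all probe sets were counted in females and 6.14% in males. By the plain analysis of variance, 1 of 14 and 2 of 10 had an unadjusted p under 0.05 in males, and 0 and 0 passed after adjustment. For these unadjusted counts no share of all probe sets by the same test is given here. Both lists were written knowing results of sex-biased genes in these arrays, so their direction is no independent evidence; they also hold Acot3, Cux2 and Cyp7b1, described next.

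The genes whose pattern was most like those of Cyp17a1 and Esr1 were sought over all 23 arrays. Likeness was measured as the root-mean-square difference of log2 values after each gene's own mean was subtracted, among named genes whose SD lay within a factor of 2 of the member's. For Cyp17a1, whose own values deviate by 2.01 from their mean, the 3 closest of 60 candidates were Abcd2, a peroxisomal transporter of fatty acids (0.47), Acot3, a peroxisomal thioesterase (0.48), and Slc22a26, a member of the organic ion carriers (0.51). The group means in female KO, female WT, male KO and male WT were 9.13, 9.0, 4.97 and 4.92 for Abcd2, 8.92, 8.28, 4.93 and 5.30 for Acot3, and 9.50, 9.35, 4.91 and 5.02 for Slc22a26. The likeness thus lies mainly in the sex difference. KO minus WT in females was 0.13 for Abcd2, 0.64 for Acot3 and 0.14 for Slc22a26 (limma, adjusted p = 0.949, 0.705 and 0.932). In males it was 0.05 for Abcd2, -0.37 for Acot3 and -0.11 for Slc22a26 (limma, adjusted p = 0.986, 0.835 and 0.955), and none of these passed. For Esr1, whose values deviate by 0.91, the closest of 276 candidates were Lratd2 (0.35), the retinol dehydrogenase family gene Rdh16f2 (0.35) and Gbp7, an interferon-inducible GTPase (0.365).

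The wider pathway was read on 5 lists with 86 genes, of which 73 were measured. Between the sexes 17 of the 73 passed in KO, 12 higher and 5 lower in females, and 13 passed in WT, 8 higher and 5 lower (limma). That is 23.3% and 17.8% of the list genes, beside 4.85% and 4.25% of all probe sets. These shares are no test of the pathway, since the lists were chosen with earlier results of these data known. They also differ in kind: each list gene counts once, while all probe sets include 13842 without a symbol and repeats of some genes. By the plain analysis of variance after adjustment, 13 passed in KO, 11 of them called by limma too, and 6 in WT, all 6 called by limma too. The limma calls lost there were those of Hsd17b6, Hsd17b12, H6pd, Tdo2, Lcn2 and Stat5a in KO, at adjusted p of 0.06 to 0.245, and those of Hsd17b10, Akr1c12, Fkbp5, Tdo2, Lcn2, Cux2 and Igfals in WT, at adjusted p of 0.0572 to 0.207. Ghr and Hsd17b13 passed in KO by that test only, both lower in females (-0.22 and -0.26, adjusted p = 0.0146 and 0.0426).

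Among 9 other receptors and hormone-binding proteins, Serpina6 was higher in females and 8 did not pass, in KO and in WT. Serpina6 encodes transcortin, the plasma carrier of glucocorticoids. It averaged 12.54 ± 0.12 in female KO and 11.47 ± 0.15 in male KO (log2, SD, n = 6 each), and 12.48 ± 0.25 in female WT (n = 6) and 11.47 ± 0.15 in male WT (n = 5). The difference was 1.07 in KO (SE 0.10, limma, adjusted p = 8.82e-09) and 1.01 in WT (SE 0.10, limma, adjusted p = 1.03e-07). The median of the 9 was -0.04 in KO and -0.04 in WT.

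Among 9 chaperones and coregulators of the receptors, Fkbp5, a chaperone that lowers hormone binding by the glucocorticoid receptor, was higher in females and 8 did not pass, in KO and in WT. It averaged 8.07 ± 0.23 in female KO and 6.66 ± 0.17 in male KO (log2, SD, n = 6 each), and 8.06 ± 0.61 in female WT (n = 6) and 7.03 ± 0.52 in male WT (n = 5). The difference was 1.41 in KO (SE 0.21, limma, adjusted p = 4.42e-05) and 1.03 in WT (SE 0.22, limma, adjusted p = 0.00439). In WT the plain analysis of variance, in which each gene keeps its own spread, gave an adjusted p of 0.20.

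Of 29 other steroid-converting enzymes, 3 were higher and 4 lower in female KO than in male KO, and 1 was higher and 4 lower in female WT than in male WT; 3 were called in both. Cyp7b1, a hydroxylase of oxysterols and androgens, had the largest difference, -2.78 in KO and -2.78 in WT (SE 0.21 and 0.22, limma, adjusted p = 1.38e-10 and 5.83e-10). Hsd17b6, an oxidase of androgens, was higher in females by 0.52 in KO and 0.99 in WT (limma, adjusted p = 0.0302 and 7.49e-05). Akr1d1, the steroid 5-beta-reductase, was higher in females by 0.69 in KO and read 0.40 higher in WT (limma, adjusted p = 0.000285 and 0.0634). Akr1c20, another aldo-keto reductase, was higher by 0.67 in KO and read 0.39 higher in WT (limma, adjusted p = 3e-04 and 0.0636). Hsd17b4, a peroxisomal enzyme of fatty acid oxidation, and Akr1c12 were lower in females in WT (-0.23 and -0.34, limma, adjusted p = 0.0241 and 0.0364), and leaving out any one of 4 and of 8 WT arrays ended these calls, at adjusted p of up to 0.0672 and 0.0947. Hsd17b4 was also lower in KO (-0.20, limma, adjusted p = 0.0449), where Akr1c12 read -0.09 and did not pass (adjusted p = 0.705). The other calls were Hsd17b12, a reductase of fatty acid elongation that was lower in females in KO (-0.35, limma, adjusted p = 0.0167), and the mitochondrial dehydrogenase Hsd17b10, lower in WT (-0.27, limma, adjusted p = 0.0424). H6pd, which supplies Hsd11b1 with its cofactor, was lower in females in KO, at -0.49, and read -0.28 in WT (limma, adjusted p = 0.0101 and 0.227). The KO and WT values of Akr1d1 and H6pd were not shown to differ, with adjusted p of 0.975 and 0.988 for the difference (limma).

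Of 16 measured genes that respond to glucocorticoids in liver, 4 were higher and 1 lower in females in KO, and 4 were higher and 1 lower in WT; all 5 were called in both. The metallothioneins Mt1 and Mt2, metal-binding proteins, had the largest differences. Mt1 was higher by 3.21 in KO and 3.05 in WT (SE 0.31 and 0.33, limma, adjusted p = 2.94e-08 and 2.98e-07), and Mt2 by 2.82 in KO and 2.91 in WT (SE 0.36 and 0.38, limma, adjusted p = 3.9e-06 and 7.17e-06). Fkbp5, which this list also holds, was another. Tdo2, an enzyme of tryptophan breakdown, was slightly lower in females, at -0.29 in KO and -0.32 in WT (limma, adjusted p = 0.0257 and 0.0217), and this call was lost on leaving out any one of 6 of the 12 KO arrays or of 3 of the 11 WT arrays, at an adjusted p of up to 0.08 and 0.0585. The remaining gene called was Lcn2, which binds bacterial iron carriers and was higher in females by 1.41 in KO and 1.55 in WT (limma, adjusted p = 0.0298 and 0.0245); by the plain analysis of variance neither passed (adjusted p = 0.245 and 0.0572).

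Of 11 measured genes of signalling below the prolactin and growth hormone receptors, 4 were higher in females in KO and 2 in WT, and none was lower. Cux2, a repressor with a female bias in mouse liver, was higher by 0.96 in KO and 0.70 in WT (SE 0.12 and 0.13, limma, adjusted p = 4.57e-06 and 0.000998), and by the plain analysis of variance the WT adjusted p was 0.0778. Igfals, the acid-labile carrier subunit of Igf1, was higher by 0.52 in KO and 0.41 in WT (limma, adjusted p = 0.002 and 0.0262), and its WT call was lost without any of 5 single arrays, at an adjusted p of up to 0.0967. Stat5a (0.37) and Igf1 (0.29) passed in KO (limma, adjusted p = 0.023 and 0.0424), and these calls were lost without any one of 5 and of 8 arrays, at an adjusted p of up to 0.073 and 0.109.

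**Figure D4:**
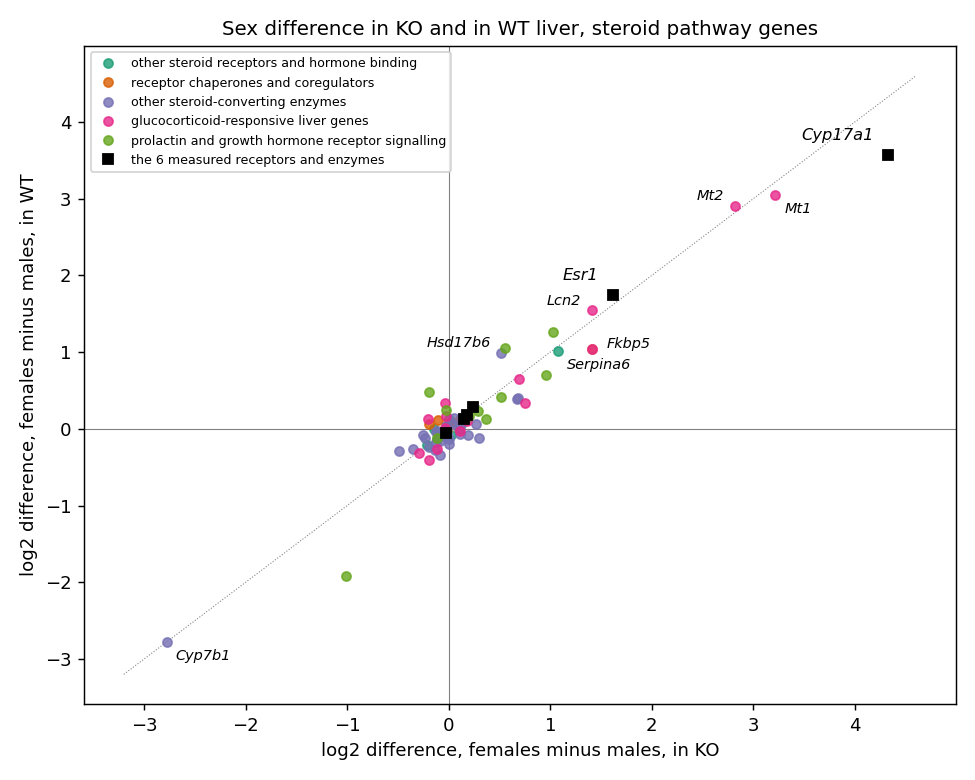
Log2 difference, females minus males, in KO (horizontal axis) and in WT (vertical axis) for the genes of 5 steroid pathway lists (circles, coloured by list) and the 6 measured receptors and enzymes (black squares); the dotted line marks equal values. Cyp17a1 lies at 4.33 and 3.57, Mt1 at 3.21 and 3.05, Esr1 at 1.61 and 1.75, and Cyp7b1 at -2.78 on both axes.

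Between KO and WT, 0 of the 73 pathway genes passed in females and 0 in males by limma. At an unadjusted p under 0.05 there were 9 and 5, which is 12.3% and 6.85% of the 73, beside 5.87% and 6.14% of all probe sets. For the reasons given above for the sex comparisons, these shares are no test of the pathway either. By the plain analysis of variance after adjustment, 0 and 0 passed. In females the converting enzyme of lowest p was Hsd11b2, the dehydrogenase that inactivates glucocorticoids in kidney (-0.35, limma, adjusted p = 0.818), read at a dim 3.39 in KO and 3.74 in WT. Of the genes that respond to glucocorticoids, Tat had the lowest p in females, reading 0.29 higher in KO (SE 0.13, limma, adjusted p = 0.844). Lcn2 read 0.84 higher in female KO and 0.98 higher in male KO (limma, adjusted p = 0.848 and 0.747). Its SD was 1.28 in male KO and 0.66 in male WT, and without male KO replicate 3 the male difference was 0.57. In males Sgk1, a kinase, had the lowest p of its list, at 0.54 (SE 0.15, limma, adjusted p = 0.41). Of the signalling genes, Stat5a read 0.22 higher in female KO, and of the chaperones Hsp90aa1 read 0.24 higher in male KO (limma, adjusted p = 0.836 and 0.777).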

How the data were processed

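The deposited values are linear-scale intensities per probe set, which the authors obtained by RMA (named in the submitters' processing notes, per the labels; version and settings are not stated there). Amplified RNA was hybridised as biotin-labelled cRNA, per the labels' protocols. Values were converted to log2. Of 38385 probe sets, the platform annotation gives 1 symbol to 24478, several to 65 and none here to 13842. Group means were fitted across all 23 arrays with limma 3.58.1 in R 4.3.3 (19 residual and 7.61 prior degrees of freedom), without scaling beyond RMA, with Benjamini-Hochberg adjustment of p over the whole table. The fit was also run on simulated data in which each probe set had the same spread in all groups, unlike the uneven spread of some genes here. Errors beside differences are SE with moderated spread; intervals are 95%. Groups come from sample titles. Plots used Python 3.11.15 and matplotlib 3.10.9.

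The members and lists were chosen with earlier results of these data known. Named are the members; per list and comparison up to 4 passing genes of smallest p, or up to 2 where none passes; and 3 most similar genes. Not every such gene is printed, mainly uncalled ones and sex-biased genes. Lcn2, Ghr, Hsd17b10, Hsd17b12 and Hsd17b13 in the sex comparisons, the KO values of Hsd17b4 and Akr1c12, the WT values of Akr1c20, Akr1d1 and H6pd, and the markers fall outside the rule and were named after their values were seen. Alternatives were a dim filter, quantile normalization, equal medians, array weights, trend with robust variance, replicate block, compared groups only, the design text's analysis of variance, averaging the probe sets of a gene, and leaving out each array.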

Additional observations from a re-analysis of the deposited data

Results flagged for a closer look

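Among 24 sets of 1 gene in 1 group, 4 had an array whose gap to its nearest neighbour was large for the group's range (Dixon's test), where chance flags about 1 in 20. All 4 were small in size. Hsd11b1 in female KO replicate 3 read 12.76, with the next array at 12.85. Akr1c6 read 13.53 in female WT replicate 6 (next 13.63), 13.57 in male KO replicate 3 (next 13.68) and 13.56 in male WT replicate 2 (next 13.69).

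For 4 sex-biased genes the KO effect differed between females and males by a test of the difference itself (limma). The KO effect in females minus that in males was -3.25 for Hsd3b5, 4.92 for Sult2a2, 3.50 for Sult2a1 and 2.72 for Hao2 (adjusted p = 0.00116, 6.27e-05, 6.27e-05 and 0.0131). Sult2a1, Sult2a2 and Hao2 read between 2.39 and 3.25 (log2) in all male arrays, so dim that a lower level in male KO could not have been read. The sizes 4.92, 3.50 and 2.72 therefore describe mainly the female arrays: a rise in male KO could have been read, a fall could not. The p-values rest on a spread shared by all 4 groups, which was uneven: the SD of Sult2a2 was 1.52 in female KO, 0.14 in male KO and 0.15 in male WT. By the plain analysis of variance, the calls of all 4 genes between female KO and female WT were lost (adjusted p = 0.0504 to 0.392). Under an intensity trend with robust variance in limma, the Hao2 difference of KO effects did not pass (adjusted p = 0.219).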

How the results depend on the processing

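For the 6 genes, 696 values under alternatives were compared with the reported ones: 651 kept direction and side of the threshold, 44 changed sign, 1 newly passed and 0 calls were lost. The sign changes concern uncalled differences near 0. The calls of Esr1 and Cyp17a1 between the sexes, 2 in KO and 2 in WT, and the 0 calls between KO and WT held with every array left out in turn. The cause of the changes below was not tested.

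With quantile normalization, Hsd11b1 for KO against WT read -0.0002 in females and -0.015 in males, and the KO effect in females minus that in males read 0.0147 for Hsd11b1 and -0.0096 for Nr3c1. That difference read 0.0073 for Hsd11b1 with equal medians and -0.0145 for Nr3c1 with array weights. With the probe sets of a gene averaged, it read 0.0331 for Esr1 and -0.0452 for Nr3c1. Scaling moved the median of all genes by at most 0.0259.

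Leaving out 1 array in turn, KO against WT ran in females from -0.02 to 0.1102 for Nr3c1, -0.0185 to 0.0494 for Hsd11b1 and -0.0124 to 0.025 for Akr1c6, and in males from -0.0245 to 0.0867, -0.0149 to 0.0488 and -0.0419 to 0.0117 for the same genes. The difference of KO effects ran from -0.2595 to 0.0187 for Esr1, -0.0482 to 0.0821 for Nr3c1, -0.0391 to 0.0383 for Hsd11b1, -0.111 to 0.0367 for Hsd17b2 and -0.0029 to 0.0507 for Akr1c6. Over all probe sets, calls then ran from 16 to 29 for KO against WT in females and from 9 to 21 in males (21 without male WT replicate 6, against 12), from 4 to 5 for the difference, and for females against males from 1447 to 1753 in KO and 1257 to 1472 in WT.

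The design text's analysis of variance at an unadjusted p under 0.05 with a change over 20% called 1 of the 6 genes for KO against WT in females, Cyp17a1 at 0.51, and over all probe sets 397 in females, 582 in males and 2707 for females against males in WT. After Benjamini-Hochberg adjustment it called 7, 3 and 765, and 1209 for females against males in KO. It was not run for the difference of KO effects, which spans 4 groups.

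The replicate numbers gave no sign of pairing the arrays: deviations from group means correlated at a median of -0.023 over 33 same-numbered pairs, against 0 over 165 others, and 2 of 23 arrays matched their own number best. A pairing with weak effects could not be seen this way. With the replicate block the calls over all probe sets were 18, 13, 4, 1685 and 1506 in the order above, no call of the 6 genes changed, and the difference of KO effects of Hsd11b1 read 0.0095.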

Other observations

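Markers of other liver and neighbouring cells were also read between the sexes. Of 7 stellate cell markers, Dcn, Col3a1 and Colec11 were higher in females in KO (0.25, 0.54 and 0.47; limma, adjusted p = 0.0277, 0.00386 and 0.00219), and 0 passed in WT. Of 6 lymphocyte markers, Cd3d and Nkg7 were higher in females in KO (0.34 and 0.41) and in WT (0.42 and 0.42). Of 7 sinusoidal endothelial markers, 0 passed in KO and Stab1 did in WT (0.32; limma, adjusted p = 0.0477). Of 4 cholangiocyte markers, 0 passed in KO and Sox9 was lower in females in WT (-0.41; limma, adjusted p = 0.0234). Of 5 pancreatic acinar markers, Cela1 was lower in females in KO (-0.51; limma, adjusted p = 0.023) and 0 passed in WT. By the plain analysis of variance after adjustment, the calls of Dcn, Col3a1, Cd3d and Cela1 in KO and of Cd3d, Stab1 and Sox9 in WT were lost, at adjusted p of 0.0616 to 0.163. Between KO and WT, 0 markers of these lists passed in either sex (limma).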
